A study of Mus musculus with 2 samples.

Results

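The cells described here are endothelial cell barcodes of mouse heart valves that were selected on 3 genes, Prox1, Cldn11 and Foxc2. A barcode was taken when it held at most 20000 UMIs (unique molecular identifiers, counted transcripts) and when the fibroblast genes Col1a1, Col1a2, Col3a1 and Dcn made up less than 1% of them. It also had to carry at least 2 UMIs of the 6 pan-endothelial genes Pecam1, Cdh5, Emcn, Egfl7, Esam and Tie1. Its summed Prox1, Cldn11 and Foxc2 UMIs had to exceed both the sum of Wnt9b, Pthlh and Dkk2 and the sum of Fabp4, Vwf, Edn1 and Cytl1. The rule took 77 of 4473 barcodes, 33 of 961 at postnatal day 7 (P7) and 44 of 3512 at postnatal day 30 (P30). They are called Prox1-selected barcodes below.

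Aortic and mitral valves of C57BL/6J mice were dissociated and sequenced as single cells with Drop-seq, in which droplets join each cell to a barcoded bead that captures transcript 3' ends. The labels give no other genotype or treatment for either group and do not say how many animals were pooled or which barcodes came from which valve. Each age is 1 library, so no test between ages or cells was made, and age and sequencing run cannot be told apart. Intervals are 95% and cover counting error only.

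Prox1 is the homeobox factor that sets lymphatic endothelial identity. Foxc2 is a forkhead factor needed for lymphatic valves, and Cldn11 is a claudin of tight junctions. Prox1 and Foxc2 have also been described in the endothelium of venous and cardiac valves, where vessels of the lymphatic kind, marked by Lyve1, the chemokine Ccl21a, Reln, Mmrn1 and Pdpn, are a separate cell population.

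The comparison group was the other endothelial barcodes, which met the first 3 conditions but not the last. These were 62 at P7 and 163 at P30, and held a Wnt9b type (31 and 86 barcodes, led by the Wnt9b sum), a vascular type (15 and 48, led by the Fabp4 sum) and barcodes that neither sum nor the Prox1 sum led (16 and 29, unresolved). As a reference that should lack endothelial genes, barcodes with at least 1% fibroblast genes and fewer than 2 pan-endothelial UMIs were used (711 and 2800, interstitial type). The Prox1-selected barcodes were 34.7% (25.3 to 45.2, exact Clopper-Pearson interval) of the 95 endothelial barcodes at P7 and 21.3% (15.9 to 27.5) of the 207 at P30, shares that the rule sets. Their median depth was 2764 and 2542.5 UMIs, against 2596 and 2544 in the other endothelial and 2253 and 2546.5 in the interstitial-type barcodes. The unresolved barcodes were shallower, at 1114.5 and 1223 UMIs, and the vascular type at P30 deeper, at 4817.5. Median mitochondrial shares of UMIs were 1.97% and 5.48% in the Prox1-selected barcodes and 3% and 4.68% in the other endothelial ones. No barcode sequence was shared by the libraries (0 shared). Doublets were not called here.

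The genes of the rule are a description and support nothing. Prox1 was seen in 28 of 33 Prox1-selected barcodes at P7 and 39 of 44 at P30, Cldn11 in 17 and 25, and Foxc2 in 8 and 8. Prox1 and Cldn11 occurred together in 13 and 20 barcodes, Prox1 was the only one of the 3 in 12 and 17, and all 3 were present in 3 and 5. The summed UMIs of the 3 genes had a median of 4 at P7 (lowest 1, highest 20) and of 5 at P30 (lowest 1, highest 19). Just inside the threshold, 7 and 10 barcodes led by a single UMI. Just outside it, 1 and 7 endothelial barcodes with at least 1 such UMI were tied, and 1 and 3 were behind by 1. Prox1 stood at 786 UMIs per 1000000 (CPM) at P7 and 975 at P30 in the selected barcodes, 79.2 and 131 in the other endothelial ones, and 7.49 and 9.01 in the interstitial type. Of the pan-endothelial genes used, Egfl7 was in 30 and 38 of the selected barcodes, Pecam1 in 26 and 36, and the junction gene Esam in 3 and 11.

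The name lymphatic-like was checked against 17 lymphatic endothelial genes, and the data went against it for all but a few barcodes. At P7, Lyve1, Ccl21a, Mmrn1 and Reln had 0 UMIs in the 33 barcodes, which allows up to 25.7 CPM, and Pdpn had 1 UMI. At P30, all 254 Ccl21a UMIs lay in 2 of the 44 barcodes, 145 in the first and 109 in the second. Of the UMIs in selected barcodes, the same pair held every one of Lyve1 (20 and 3), Mmrn1 (15 and 2) and Reln (9 and 1), and, of 9 Pdpn UMIs, 6 and 1. Lyve1 was not particular to the selection, since 13 of the 163 other endothelial barcodes at P30 carried it too. These 2 barcodes held 8731 and 3939 UMIs, above the P30 median of 2542.5, and entered the rule by Prox1 alone, with 18 and 2 UMIs. They carried 0 UMIs of Postn, Pdgfra, Enpp2, Lsamp and Ahsg, the genes that lead the other Prox1-selected barcodes. The other 42 barcodes at P30 had 0 UMIs of Ccl21a and Lyve1, which allows up to 18 CPM. Flt4, the receptor of lymphatic growth factor VEGF-C, was in 8 of 33 and 10 of 44 selected barcodes, and 4 of its 14 UMIs at P30 were in the 2 barcodes. Its level was 97.4 CPM (53.2 to 163) against 27.7 (11.1 to 57.1) in other endothelial barcodes at P7 and 64.4 (35.2 to 108) against 55.5 (38.9 to 76.9) at P30, so it was called higher at P7 only, and that difference between the libraries was not tested. Summed over the 17 genes the level was 431 and 2102 CPM in the selected, 428 and 554 in the other endothelial and 133 and 205 in the interstitial-type barcodes. Only 4 of the 17 genes were measured in both libraries, by the limit given next, and 0 of them were called.

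**Figure D1:**
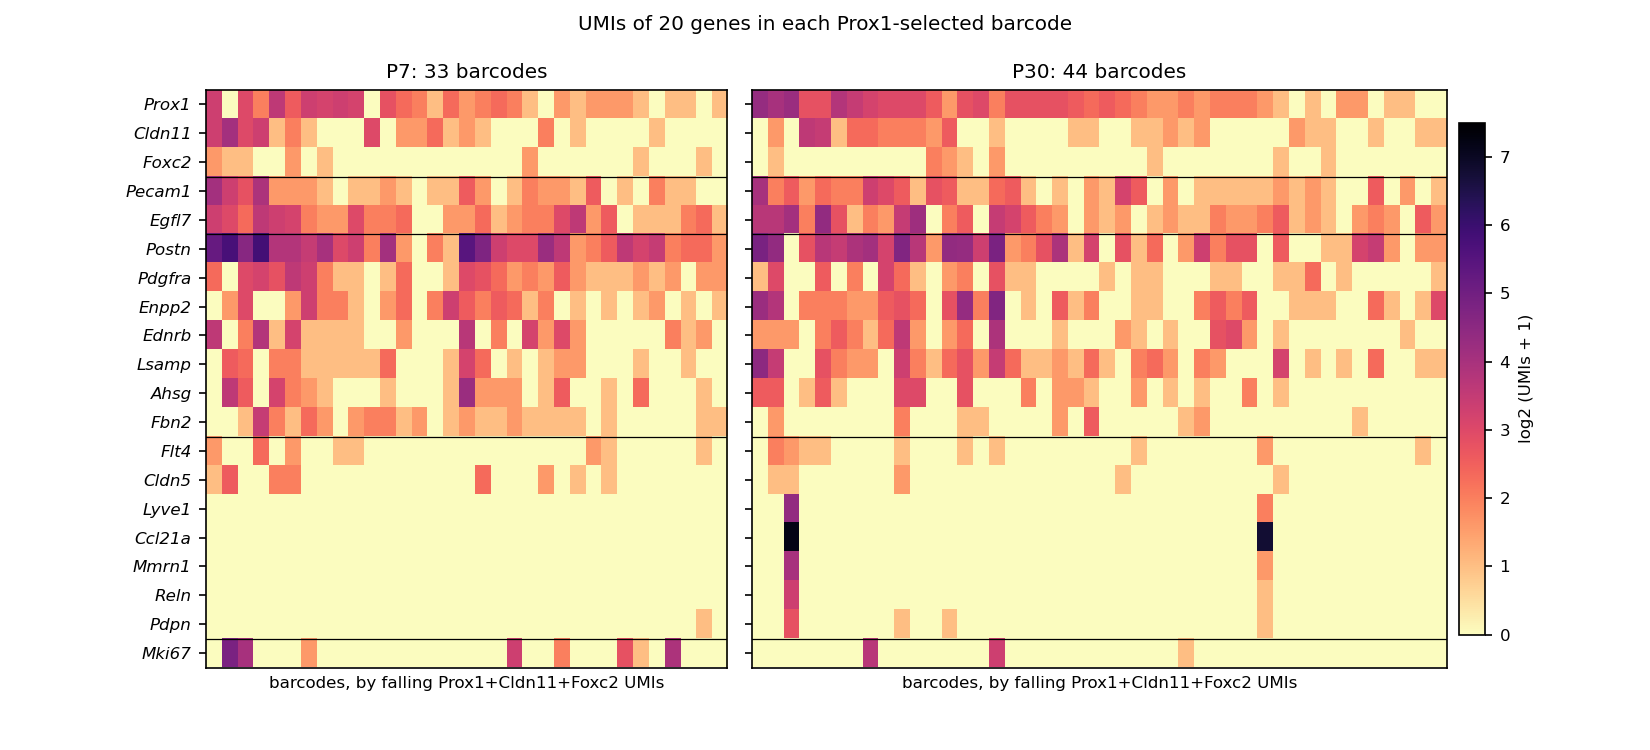
UMIs of 20 genes (vertical axis) in each Prox1-selected barcode (horizontal axis, by falling Prox1, Cldn11 and Foxc2 sum), 33 at P7 on the left and 44 at P30 on the right; colour is log2 of UMIs plus 1. Ccl21a, Lyve1, Mmrn1 and Reln are seen in 2 P30 barcodes, which lack Postn, Pdgfra, Enpp2, Lsamp and Ahsg.

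Genes outside the rule were then compared between Prox1-selected and other endothelial barcodes within each library, with UMIs summed over the barcodes of a group. A gene was measured when both groups together held at least 15 UMIs in each library, and called when the levels were at least 2-fold apart and the interval of the ratio excluded equal levels, in the same direction in both libraries. Of 4753 measured genes, 56 were called higher in the Prox1-selected barcodes (1.18%) and 148 lower (3.11%). The median log2 ratio over all measured genes was -0.12 at P7 and -0.01 at P30. Both libraries point the same way for these genes by construction, and the barcodes of a library are not replicates.

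The genes that stood out most included signalling and matrix genes more familiar from mesenchymal cells. Postn encodes periostin, a matricellular protein of valve matrix (chr3:54361109-54391037, GRCm38). It stood at 3011 CPM (2734 to 3308) in the Prox1-selected and 590 (499 to 693) in the other endothelial barcodes at P7, and at 1518 (1359 to 1691) and 276 (237 to 320) at P30. The log2 ratios were 2.35 (2.08 to 2.63) and 2.46 (2.19 to 2.73). Postn is also a gene of the interstitial type, where it was at 5335 and 1282 CPM, so at P30 the selected barcodes were no lower than the interstitial ones. It was seen in 32 of 33 selected barcodes at P7 and 37 of 44 at P30, against 33 of 62 and 59 of 163 other endothelial ones. Thinned to 500 UMIs per barcode, the shares were 74% and 51.3% in the selected, 24.9% and 11.5% in the other endothelial and 84% and 37.4% in the interstitial-type barcodes.

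Pdgfra, the PDGF receptor alpha that marks mesenchymal cells (chr5:75152292-75198215), had its highest level in the selected barcodes. Its level was 688 CPM (560 to 838) at P7 and 253 (191 to 329) at P30, against 43.6 (21.8 to 78) and 37 (23.7 to 55.1) in the other endothelial barcodes and 83.8 and 67.1 in the interstitial type. The unresolved barcodes came next, at 97.7 and 158 CPM. It was in 28 of 33 and 22 of 44 selected barcodes, in 6 of 62 and 15 of 163 other endothelial ones, and in 129 of 711 and 419 of 2800 of the interstitial type. The thinned shares were 37.9% and 12.6%, against 3.36% and 2.34% in the other endothelial barcodes and 5.01% and 3.45% in the interstitial type.

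Of 12 interstitial markers, 6 were measured, 3 were called higher (Postn, Pdgfra and Fn1) and Vcan, the large proteoglycan of valve matrix, was called lower, at 278 against 804 CPM at P7 and 115 against 346 at P30. Dpt, which was at 3378 and 7930 CPM in the interstitial type, was at 27.8 and 64.4 in the selected barcodes. Lum was at 1412 and 1817 CPM in the interstitial type and at 243 and 73.6 in the selected barcodes, and Fbln1 at 392 and 789 against 13.9 and 18.4. Summed over the 12 markers the level was 5966 and 3616 CPM in the selected, 2464 and 1734 in the other endothelial and 19246 and 20459 in the interstitial-type barcodes. By type it was 1310 and 1292 in the Wnt9b type, 5491 and 2009 in the vascular type and 2662 and 3426 in the unresolved barcodes. The vascular type at P7 and the unresolved barcodes at P30 were thus near the selected ones in this sum. The collagen limit of the rule also keeps such genes low, and what part mixed droplets have in these values was not tested.

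Enpp2 encodes autotaxin, the secreted enzyme that makes lysophosphatidic acid (chr15:54838901-54952892). It was at 508 CPM (398 to 638) at P7 and 718 (609 to 839) at P30, against 55.5 (30.3 to 93.1) and 71 (52 to 94.7) in other endothelial barcodes, a log2 ratio of 3.19 (2.36 to 4.13) and 3.34 (2.86 to 3.85). In the interstitial type it was at 65.6 and 73 CPM, and in the unresolved barcodes at 269 and 428, between the groups. Ednrb, an endothelin receptor, was at 570 CPM (454 to 708) and 354 (280 to 443), against 55.5 and 80.2 in other endothelial and 4.68 and 2.8 in interstitial-type barcodes. It was seen in 19 of 33 and 22 of 44 selected barcodes, and in 7 of 711 and 9 of 2800 of the interstitial type. The unresolved barcodes were at 73.3 CPM at P7 and at 451 at P30, above the selected ones. At P30 the unresolved group included 1 barcode with 224 UMIs of melanocyte markers, and its part in the Ednrb level was not tested. Ephx2, the soluble epoxide hydrolase that degrades epoxy fatty acids, was scarcer, at 167 and 138 CPM against 43.6 and 18.5, with 1.87 and 0.609 in the interstitial type. Kdr, the main VEGF receptor of endothelium, was at 264 and 313 CPM against 91.1 and 97.2.

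Lsamp, an immunoglobulin-type adhesion protein known from neurons, was at 313 CPM (228 to 419) and 566 (470 to 675), against 59.4 and 44.7. Fbn2, which encodes the microfibril protein fibrillin 2, was at 320 CPM (234 to 427) and 82.8 (49.1 to 131), against 31.7 and 3.09. At P30 the Fbn2 value in other endothelial barcodes rested on 2 UMIs, so its ratio of 26.8-fold had a log2 interval of 2.68 to 7.90, and without the barcode of each group that held most of its UMIs it was no longer called. Fn1, fibronectin, was at 1613 and 1477 CPM against 666 and 390, but the vascular type alone was at 2037 at P7, above the selected barcodes. Rdx encodes radixin, which ties actin to the membrane, and was at 2003 and 2378 CPM against 725 and 935. Col18a1, a basement membrane collagen, was at 299 and 106 CPM against 83.2 and 32.4, and was the single gene called higher among 13 measured basement membrane genes. Col18a1 was not called with barcodes weighted equally or with at most 10000 UMIs.

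Ahsg encodes fetuin-A, a plasma protein that binds calcium phosphate and is made chiefly by liver, and was at 473 CPM (367 to 599) and 244 (183 to 319), against 11.9 (2.45 to 34.7) and 49.4 (33.8 to 69.7). It was in 17 of 33 and 17 of 44 selected barcodes. Its P7 ratio of 39.8-fold rests on 3 UMIs in the other endothelial barcodes. The transcription factor Ebf1 was at 779 and 856 CPM against 230 and 233, with 245 and 214 in the Wnt9b type and 177 and 202 in the vascular type. Tshz2, Zfp36l1, Sepp1, Epha7, Aebp1, Akap12 and Egr1 were also among the 20 named, with log2 ratios between 1.27 and 2.03 at P7 and between 1.05 and 3.06 at P30. Without the 2 Ccl21a barcodes, Sepp1 was no longer called, and Egr1 was not called without the top barcodes.

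How these genes were spread over barcodes was described with 6 of them, Postn, Pdgfra, Enpp2, Ednrb, Lsamp and Ahsg. At least 3 of the 6 were present in 28 of 33 selected barcodes at P7 and 32 of 44 at P30. This held for 0 of 31 and 2 of 86 of the Wnt9b type, 3 of 15 and 9 of 48 of the vascular type, 3 of 16 and 7 of 29 of the unresolved and 70 of 711 and 250 of 2800 of the interstitial type. The 6 were picked for being high in the selected barcodes, so the order of the endothelial groups is fixed by that choice and supports nothing. The genes were present with and without Cldn11. Enpp2 was at 451 CPM (335 to 594) in the 17 P7 barcodes with a Cldn11 UMI and 700 (444 to 1050) in the 16 without, and at 642 (520 to 784) and 883 (674 to 1137) in the 25 and 19 at P30. Barcodes that entered on a single rule UMI (5 and 5) had Postn at 3264 CPM (2069 to 4898) and 2153 (1230 to 3496). The barcodes just outside the threshold (2 and 10) had it at 812 (420 to 1419) and 994 (630 to 1491). At P7 this order did not hold for Lsamp, at 142 CPM (3.59 to 791) on 1 rule UMI and 406 (149 to 884) just outside. At P30 the order did not hold for Pdgfra, at 135 CPM (3.41 to 750) on 1 rule UMI and 216 (70.1 to 504) just outside, or for Ednrb, at 135 (3.41 to 750) and 302 (122 to 623), and Ahsg had 0 UMIs and 1 UMI.

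**Figure D2:**
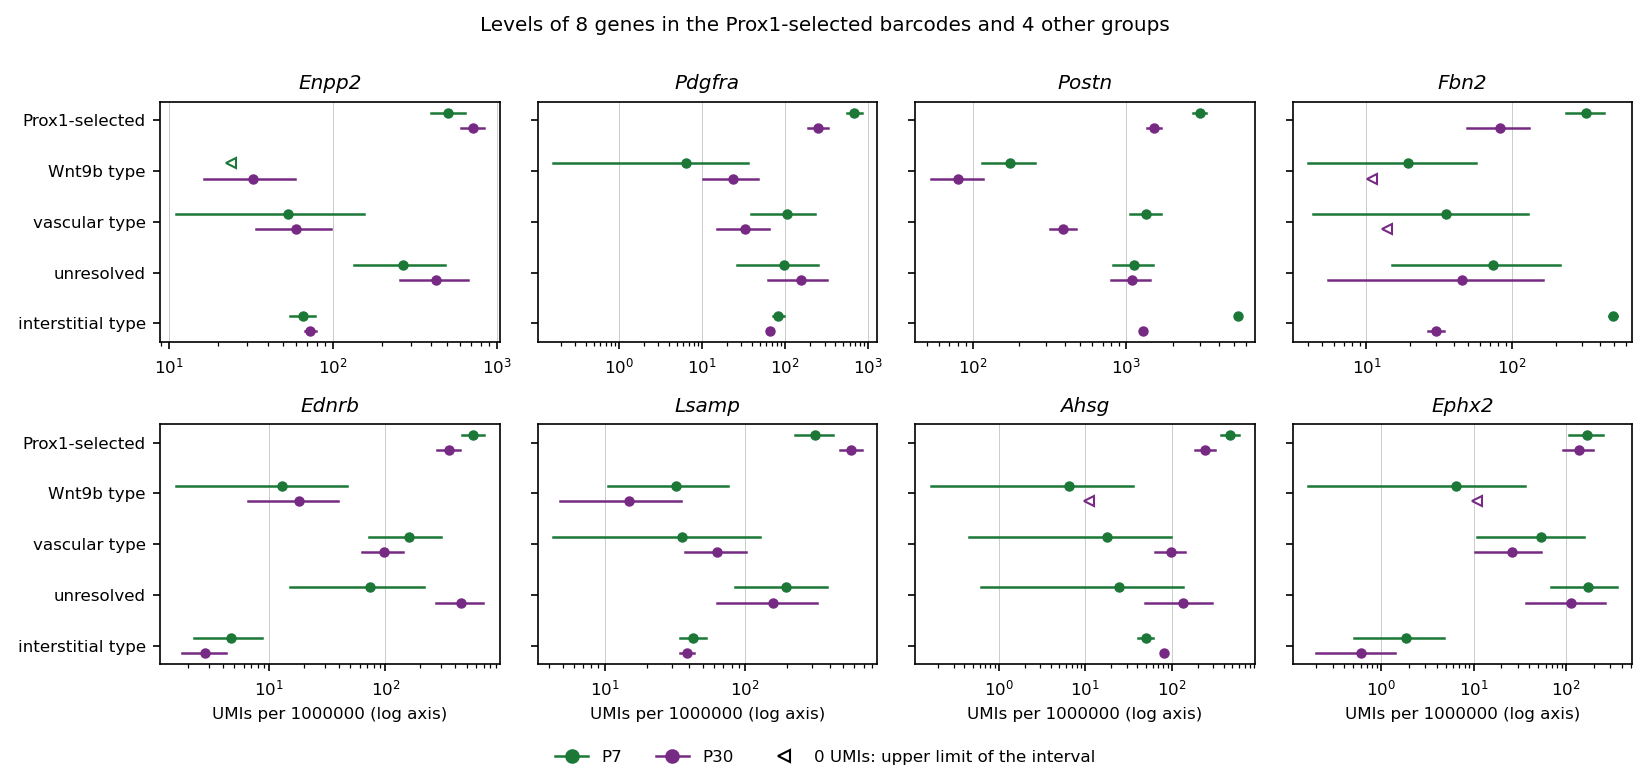
Levels of 8 genes in UMIs per 1000000 (horizontal, log axis) in Prox1-selected, Wnt9b-type, vascular-type, unresolved and interstitial-type barcodes (vertical), P7 in green and P30 in purple; bars are exact Poisson intervals and open triangles the upper limit where 0 UMIs were counted. Pdgfra was at 688 and 253 in the Prox1-selected barcodes, above its level in each other group, while Postn at P7 was higher in the interstitial type (5335).

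Sequence upstream of the named higher genes was read because Foxc2, a forkhead factor, is part of the rule. RefSeq (GRCm38.p6) windows matched 13 of the 20 genes with 19 starts, and Enpp2, Fbn2, Akap12, Fn1, Egr1, Ephx2 and Sepp1 had none. Each window is the 250 bases before a start on the gene's strand. Motifs were searched on both strands. The forkhead letters TGTTTAC were in 1 of the 19 windows (5.26%), against 3.17% of all 32851. The ETS letters CCGGAAG were in 0 of 19 and 6.91% of all, the GATA letters AGATAAG in 0 and 2.74%, and the TATA box letters TATAAA in 2 (10.5%) and 12.4%. The forkhead match was in Rdx, at -160 from the second listed start, and a TATA match was in Postn, at -26 from its second start, the last base before the start being -1. These windows and that of Pdgfra, which holds none of the 4 motifs, are chr9:52047691-52047940, chr3:54360857-54361106 and chr5:75152001-75152250, all on the plus strand, with matches in capitals.
Rdx: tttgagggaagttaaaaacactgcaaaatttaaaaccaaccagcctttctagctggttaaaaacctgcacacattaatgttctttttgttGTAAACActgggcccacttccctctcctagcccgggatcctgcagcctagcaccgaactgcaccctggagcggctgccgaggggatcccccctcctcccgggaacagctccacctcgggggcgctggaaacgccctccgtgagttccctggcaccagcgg
Postn: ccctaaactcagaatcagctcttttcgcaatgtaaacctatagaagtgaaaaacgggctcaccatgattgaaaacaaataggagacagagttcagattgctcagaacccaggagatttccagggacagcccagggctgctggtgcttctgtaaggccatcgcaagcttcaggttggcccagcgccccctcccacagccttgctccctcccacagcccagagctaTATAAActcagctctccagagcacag
Pdgfra: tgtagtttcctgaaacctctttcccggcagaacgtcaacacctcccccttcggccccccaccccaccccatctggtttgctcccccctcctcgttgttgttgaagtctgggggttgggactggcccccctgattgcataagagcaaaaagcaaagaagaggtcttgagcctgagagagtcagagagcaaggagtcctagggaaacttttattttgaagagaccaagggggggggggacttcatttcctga
A match describes letters only.

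Among the genes lower in the Prox1-selected barcodes were genes high in 1 of the other 2 endothelial types. Ly6a, a surface antigen (chr15:74994877-74998031), had 1 UMI in the selected barcodes of each library, 6.95 CPM (0.176 to 38.7) and 4.6 (0.116 to 25.6), against 510 and 1366 in the Wnt9b type and 124 and 22.4 in the vascular type. Ly6c1 had 0 and 1 UMIs, against 323 and 732 CPM in the Wnt9b type, and Ly6c2, a near-identical copy whose reads may be split with it, 0 and 0. Prnp, the prion protein gene, was at 153 and 41.4 CPM against 2426 and 1518 in the Wnt9b type, but the vascular type was also low, at 53.1 and 48.6. Fmo2, a flavin monooxygenase, was the reverse, with 0 UMIs and 18.4 CPM (5.01 to 47.1) in the selected barcodes, 38.7 and 104 in the Wnt9b type and 903 and 1729 in the vascular type. Against all other endothelial barcodes Fmo2 was at least 22-fold lower at P7, with the 0 set at 3 counts over the group, and 41.9-fold lower at P30.

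Inhba, the activin A subunit, was at 34.8 and 276 CPM against 563 and 1423, yet 1 barcode held all 5 UMIs at P7 and 1 barcode 61.7% of them at P30. Meg3, an imprinted noncoding RNA, was at 62.6 and 32.2 CPM against 1264 and 401. Rab27b, Srgn, Xirp2, Ptprr and Stmn2, the remaining named genes, had 0 to 6 UMIs in the selected barcodes of either library. Xirp2, an actin-binding muscle protein, was not called when the barcodes above 20000 UMIs were kept. Against the Wnt9b type alone, 11 of the 12 named lower and 20 of the 20 named higher genes were called. Against the vascular type alone, 2 of the 12 (Fmo2 and Meg3) and 11 of the 20 were called, so the higher genes Enpp2, Fbn2, Postn, Pdgfra, Ahsg, Ednrb, Lsamp, Ebf1, Tshz2, Col18a1 and Kdr differed from both types. Of all 148 lower genes, 120 were called against the Wnt9b type alone and 28 against the vascular type alone. The vascular type held fewer UMIs, 56460 and 267761 against 155012 and 336011 in the Wnt9b type. The lower calls, also those in the gene lists below, are thus mostly differences from the Wnt9b type.

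**Figure D3:**
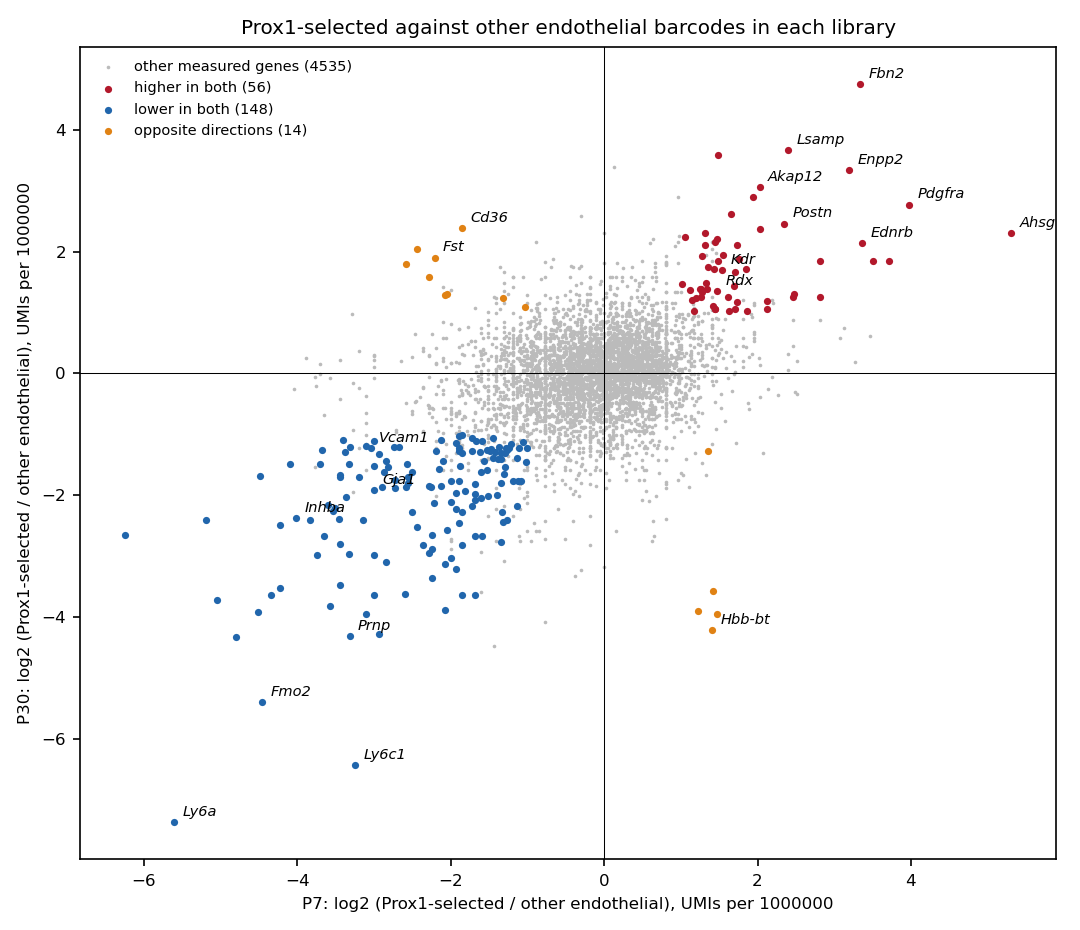
Log2 ratio of Prox1-selected over other endothelial barcodes at P7 (horizontal) and P30 (vertical) for the 4753 measured genes, with 0 UMIs set at 3 counts; red are the 56 genes called higher in both, blue the 148 lower in both and orange the 14 called in opposite directions. Enpp2, Fbn2, Pdgfra, Ahsg, Lsamp, Ednrb and Postn lie apart at the upper right.

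Gene lists were read against the shares of 1.18% higher and 3.11% lower. Among 17 measured genes of lymphatic and venous valves, 3 were higher and 3 lower, with median log2 ratios of 0.12 at P7 and 0.37 at P30. The gap junction gene Gja4, known from lymphatic valves, was at 153 CPM (95.9 to 232) against 27.7 (11.1 to 57.1) at P7 and 73.6 (42.1 to 120) against 30.9 (18.8 to 47.7) at P30, although 45.5% of its P7 UMIs were in 1 barcode and it was not called without the top barcodes. Efnb2, the ephrin B2 ligand of arteries and lymphatic valves, was at 598 and 529 CPM against 297 and 193, and Fn1 was the last of the 3. Gja1, the gap junction partner in lymphatic valves, was lower, at 48.7 and 69 CPM against 388 and 259, as was the guidance ligand Sema3a, at 27.8 and 27.6 against 103 and 66.3. Nrp1, the semaphorin and VEGF co-receptor, was at 216 and 202 CPM against 475 and 918, but these averages were set by the vascular type (1629 and 2054), and the Wnt9b type was lower than the selected barcodes (110 and 86.3). The other 11 were not called in both libraries, among them Itga9 (299 and 327 CPM against 143 and 208), which was called at P7 only, and Gata2 (257 and 350 against 230 and 248). Foxc1, the close relative of Foxc2, was at 104 and 230 CPM against 83.2 and 105 and was called at P30 only.

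Of 17 measured TGF-beta and BMP genes, 0 were called higher and 5 lower, with medians of -0.93 and -0.15. Bmp4 was at 6.95 and 32.2 CPM against 131 and 181, Tgfb2 at 188 and 36.8 against 452 and 196, and Inhbb at 6.95 and 4.6 against 75.3 and 50.9, each of the last on 1 UMI and not called without the top barcodes. The other 12 were not called in both libraries. The BMP receptor gene Bmpr2 was at 20.9 CPM and 0 UMIs against 91.1 and 49.4, and Inhba is described above. Of 5 measured Notch genes, the ligand Jag1 (20.9 and 64.4 CPM against 91.1 and 137) and the target Hey2 (48.7 and 4.6 against 206 and 67.9) were lower and 0 higher. Among 9 Wnt genes, Rspo3, a Wnt enhancer of the vascular type, was lower, at 0 UMIs and 13.8 CPM against 83.2 and 113. In the VEGF and angiopoietin list 8 genes were measured, Kdr was higher and Pgf (0 UMIs and 9.2 CPM against 99 and 67.9) and Nrp1 lower, while Flt1 was not called (897 and 1578 against 1050 and 1358).

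Of 9 measured valve endothelial genes, 4 were lower and 0 higher, with medians of -0.77 and -1.22. These were Tbx20 (62.6 and 46 CPM against 238 and 179) and Gata4 (83.4 and 64.4 against 234 and 156), both cardiac transcription factors, the adhesion molecule Vcam1 (104 and 267 against 860 and 625) and the hyaluronan linker Hapln1 (341 and 267 against 737 and 620). Hapln1 was higher in the selected barcodes than in the vascular type (88.6 and 59.8), so its call came from the Wnt9b type (1077 and 1086). Nfatc1, the factor of valve endocardium, was at 223 and 120 CPM against 147 and 92.6 and was not called. Of 9 capillary and vascular genes 5 were lower, Ly6a, Ly6c1, the water channel Aqp1 (62.6 and 216 CPM against 761 and 964), the selectin Selp (55.6 and 32.2 against 234 and 279) and the lipase Mgll (34.8 and 193 against 250 and 521). The medians of this list were -2.45 and -1.43.

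Of 17 pan-endothelial genes outside the rule, Kdr was higher and the adrenomedullin receptor Calcrl lower (209 and 106 CPM against 685 and 480), with medians of -0.62 and -0.07. Cldn5, the main endothelial claudin, was too scarce at P30 to be measured, at 139 CPM (85 to 215) against 11.9 (2.45 to 34.7) at P7 and 27.6 (10.1 to 60.1) against 4.63 (0.955 to 13.5) at P30. Among 7 flow-response genes Aqp1 alone was called, while Klf2 was at 688 and 1035 CPM against 840 and 1166 and Klf4 at 890 and 2125 against 1276 and 2330. Of 22 endothelial transcription factors, Tbx20 was lower and 0 were higher. Of 6 arterial genes Gja4 and Efnb2 were higher and Bmx and Stmn2 lower. Of 9 junction genes Gja4 was higher and Gja1 and Jam2 lower, and of 11 guidance genes Efnb2 was higher and Sema3a, Ntn4 and Nrp1 lower. Ntn4, a netrin, turned direction at P7 when barcodes were weighted equally (a log2 ratio of 0.15) or thinned (0.49), and Nrp1 was not called without the top barcodes. The prostacyclin synthase Ptgis was lower among 3 prostanoid genes, at 83.4 and 55.2 CPM against 309 and 302. The coagulation list (7 measured), the interferon list (6) and the MHC class I list (8) had 0 calls in either direction.

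Of 9 measured imprinted growth genes, Mest was called higher in both libraries and Meg3 lower, with medians of -0.30 and -0.07. H19, an imprinted noncoding RNA of growing tissues, was at 6731 CPM (6314 to 7169) in the selected and 4437 (4181 to 4705) in the other endothelial barcodes at P7, and at 2024 (1839 to 2222) and 460 (409 to 515) at P30. Its neighbour Igf2, the fetal growth factor, was at 3804 against 3201 and at 2272 (2076 to 2482) against 687 (624 to 753). Both were seen in most selected barcodes at P7 (27 and 28 of 33), and at P30 in 19 and 26 of 44, with no more than 20% of the UMIs of either gene in 1 barcode there. Both were higher in the selected than in the pooled other endothelial barcodes in each library. The ratio was under 2-fold at P7 and above it at P30, and that difference between the libraries was not tested. Summed over the list, the P7 level was 11446 CPM in the selected barcodes, 12386 in the Wnt9b type and 4658 in the vascular type. The list sum at P7 was thus not particular to the selected barcodes. At P30 the sums were 4802, 2327 and 1737. Mest was at 223 against 79.2 and 73.6 against 6.17 CPM, and 56.2% of its P30 UMIs were in 1 barcode, without which it was not called. The interstitial type had 81.5 and 4.63 CPM of H19.

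Cell cycle genes took at least 0.5% of UMIs in 7 of 33 selected barcodes at P7 and 1 of 44 at P30, and in 4 of 62 and 5 of 163 other endothelial ones. Of 13 measured cell cycle genes, Birc5, Stmn1 and Hmgb2 were called higher, with list medians of 1.55 and 0.96, and none of these 3 was called without the top barcodes. Mki67, the proliferation antigen, was at 535 CPM in 8 selected barcodes against 182 in 4 others at P7, and at 101 in 3 against 61.7 in 14 at P30.

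Summed macrophage markers were at 41.7 and 69 CPM, melanocyte markers at 20.9 and 18.4, glial markers at 20.9 and 13.8, cardiomyocyte markers at 20.9 and 59.8, mural markers at 55.6 and 46, dendritic and lymphocyte markers at 34.8 and 78.2 and mesothelial markers at 13.9 and 0 CPM in the selected barcodes. Of the 10 macrophage markers 9 were in the files, and 8 of these had 0 UMIs in the selected barcodes at P7 and 4 at P30. In the other endothelial barcodes macrophage markers were at 35.7 and 208 CPM, melanocyte markers at 15.8 and 363, glial markers at 11.9 and 40.1 and cardiomyocyte markers at 123 and 92.6. Mural markers were at 43.6 and 52.5 CPM there, and dendritic and lymphocyte markers at 67.3 and 74.1. At P30, 1 barcode held 70.4% of the macrophage UMIs and 1 held 95.3% of the melanocyte UMIs. Haemoglobin was the exception in the selected barcodes. Summed erythroid and platelet markers stood at 8567 CPM in the selected and 3316 in the other endothelial barcodes at P7, and at 451 and 6722 at P30. A single barcode held 71.8% of these UMIs in the selected barcodes at P7, and another 54.4% of those in the other endothelial ones at P30. Without the top barcode of each group the levels were 2450 and 2686 CPM at P7, the other way round, and 424 and 3096 at P30. Haemoglobin is found as free RNA in such suspensions, and its part in other differences was not tested.

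The 2 ages were then compared within the Prox1-selected barcodes. Of 4140 genes with at least 15 UMIs over both libraries, 301 were called higher at P30 (7.27%) and 417 lower (10.1%). The median log2 ratio over all 4140 was -0.09. In the other endothelial barcodes 332 of 7330 were higher and 894 lower, and the median was -0.23. These 2 comparisons share no barcode but the same 2 libraries, and the difference between them was not tested.

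H2-K1, an MHC class I heavy chain, was at 90.4 CPM (48.1 to 155) at P7 and 1205 (1064 to 1360) at P30, seen in 8 of 33 and 40 of 44 barcodes, a log2 ratio of 3.74 (2.94 to 4.67) against 1.94 in other endothelial barcodes. B2m, the light chain of MHC class I, was at 591 and 3542 CPM, and H2-D1 and H2-T23 were also called, 4 of 8 measured genes with 0 lower. In the interferon list 9 of 16 were higher and Ifitm1 lower, the last not without the top barcodes, among them Ifi27l2a at 55.6 and 745 CPM, Bst2 at 41.7 and 207 and Ifitm3 at 828 and 1688. Isg15 and Iigp1 were at 0 UMIs at P7 and 156 and 120 CPM at P30, but 67.6% and 53.8% of those UMIs were in 1 barcode, and only 4 of the 9 were called without the top barcodes. Immediate early genes, which respond to stress and to tissue dissociation, were higher in 10 of 19 and lower in 1 (Hspb1, which was not called without the top barcodes), with Egr1 at 1599 and 4701 CPM and Fos at 2302 and 4871. The median log2 ratio by age of this list was 1.03 in the selected and 0.95 in the other endothelial barcodes. For the interferon list the medians were 1.66 and 1.88, and for the MHC class I list 1.30 and 0.68. The immediate early, interferon and MHC class I shifts were thus also present in the other endothelial barcodes, the last with a smaller list median. Malat1, a nuclear noncoding RNA, was at 10918 and 51374 CPM, and at 13434 and 58958 in the other endothelial barcodes, a log2 ratio of 2.23 and 2.13.

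Of the other named genes higher at P30, Ccl21a and Ccl21b, near-identical copies, came from the 2 barcodes described above. Igfbp5, a binding protein of insulin-like growth factors, was at 48.7 CPM (19.6 to 100) in 3 barcodes at P7 and 1191 (1051 to 1346) in 23 at P30, a log2 ratio of 4.61 (3.55 to 5.94) against 1.80 in other endothelial barcodes. It was still 3.21-fold lower in the selected than in the pooled other endothelial barcodes at P30, where the Wnt9b type was at 6905 CPM. That type held most of the Igfbp5 UMIs of the pool, so the ratio does not describe each of the other types. Tsc22d3, a glucocorticoid-responsive gene, was at 27.8 and 308 CPM. Inhba was also higher at P30, at 34.8 and 276 CPM, with most UMIs in 1 barcode as given above.

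Among genes lower at P30, the 10 named were copies of the histone H2A gene. Hist1h2ap was at 1085 CPM in 4 P7 barcodes and 13.8 in 3 at P30, the copies cannot be told apart by their reads with certainty, and 0 of the 10 were called without the dividing barcodes. Of 14 cell cycle genes, 8 were lower and 0 higher, and 5 of the 8 were called without the top barcodes. The list medians were -1.44 in the selected and -0.96 in the other endothelial barcodes. Of the genes that lead the selected barcodes, Pdgfra (log2 ratio -1.44, -1.95 to -0.95), Fbn2 (-1.95, -2.82 to -1.14) and Col18a1 (-1.50, -2.30 to -0.74) were lower at P30. Postn was at -0.99 (-1.20 to -0.78), just inside the 2-fold limit, and at -1.10 in the other endothelial barcodes. Enpp2 and Lsamp were not lower, at 0.50 (0.09 to 0.92) and 0.85 (0.35 to 1.38). H19 and Mest were lower at P30, H19 at -1.73 (-1.90 to -1.57) against -3.27 in other endothelial barcodes, and Igf2 was at -0.74 (-0.92 to -0.57) against -2.22.

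**Figure D4:**
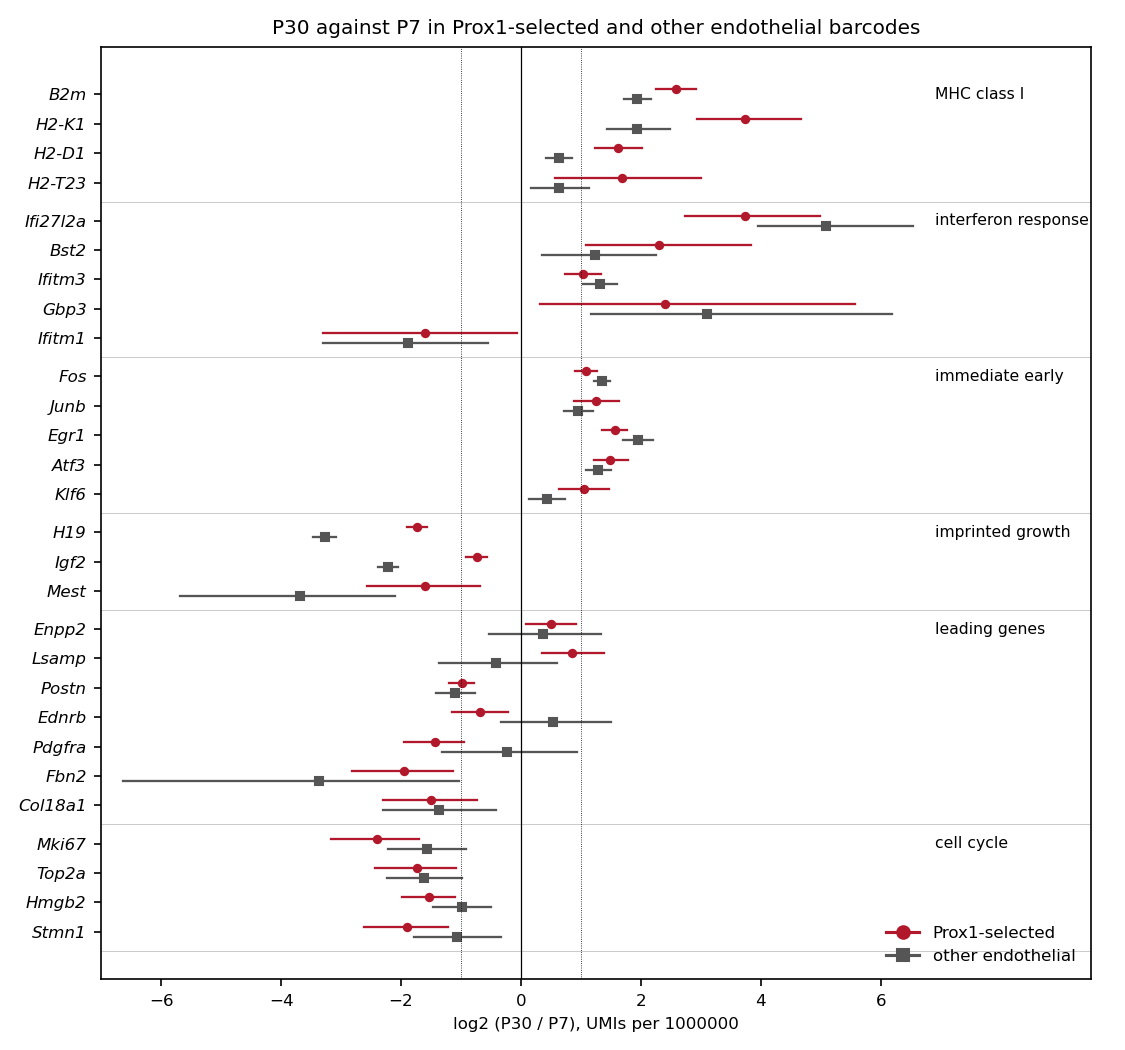
Log2 ratio of P30 over P7 (horizontal, UMIs per 1000000) for genes of 6 groups (vertical) in Prox1-selected (red circles) and other endothelial barcodes (grey squares), with exact intervals; dotted lines mark 2-fold. H2-K1 is at 3.74 and 1.94, and H19 at -1.73 and -3.27.

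Of 9 measured lymphatic genes 4 were higher at P30 (Lyve1, Ccl21a, Mmrn1 and Thy1), and Lyve1, Ccl21a and Mmrn1 lay wholly in the 2 barcodes. Of these 4, only Ccl21a was called without the top barcodes. The capillary list had 6 of 9 higher, among them Aqp1 (62.6 and 216 CPM), Plvap (125 and 271) and Cd36 (20.9 and 161), and 0 lower. The TGF-beta and BMP list had 5 of 13 higher, among them Id1 (55.6 and 299 CPM), and Tgfb2 lower, the last not without the top barcodes. In the flow list Klf4, Heg1 and Aqp1 were higher of 7, and in the pan-endothelial list Fli1 and Plvap were higher and Cldn5 lower of 18. The lymphatic and venous valve list had Foxc1 higher and Gja4 lower of 14, and Gja4 was not called without the top barcodes. The Notch, VEGF, guidance and coagulation lists had 0 calls by age, and the Wnt list 1 higher of 8. The erythroid list had 4 of 4 lower.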

How the data were processed

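The deposited tables hold whole-number UMI counts per gene and cell barcode, with no normalization, as the authors made them. The submitters' processing notes name mm10 and Bowtie2 2.2.7 without a role, while which program counted UMIs, and against which gene models, is not given in the sources used here. Barcodes were classed by the rule given above with Python 3.11.15, numpy 2.4.6, scipy 1.17.1 and pandas 2.3.3, counts were summed over each class and library, and levels are UMIs per 1000000. Intervals are exact and at 95%: Poisson for a level, Clopper-Pearson for a share, and, for a ratio, binomial given both groups' total. A group with 0 UMIs was set at 3 counts in ratios, which are then bounds. Shares at equal depth are those expected at 500 UMIs per barcode. The ratio and call code was tested on simulated data. The 20 higher and 12 lower genes named, and the 10 per direction by age, are those called genes with the largest distance from a ratio of 1 at the nearer end of the interval, leaving out rule, mitochondrial, ribosomal protein, haemoglobin and unnamed genes; all others named are members of 32 lists, or were picked after their values were seen. Of 450 list genes 443 were in the files. The members and lists were chosen with earlier results of these data known. Gene coordinates are GENCODE M21 (GRCm38). Cells were not tested against each other, with 1 library per age. Depth was 143804 and 217387 UMIs over the Prox1-selected barcodes, and 252415 and 648143 over the other endothelial ones, so a gene with 1 UMI stands near 7 and 5 per 1000000 in the former. Alternatives changed the weighting, depth, comparison group, limits of the rule, count minimum, fold and scaling, and left out barcodes.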

Additional observations from a re-analysis of the deposited data

Results flagged for a closer look

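For 14 of the 4753 measured genes the Prox1-selected barcodes were called higher than the other endothelial barcodes in 1 library and lower in the other. Taken library by library, 192 of the 4753 were called higher and 429 lower at P7, and 220 and 307 at P30. The difference between the libraries was not tested, and with 1 library per age each value stands alone. The 4 haemoglobin genes were higher at P7 and lower at P30, with log2 ratios of 1.42 and -3.56 for Hba-a1, 1.47 and -3.94 for Hba-a2, 1.22 and -3.90 for Hbb-bs and 1.41 and -4.21 for Hbb-bt, and their copies share reads. A single P7 selected barcode held 69.6% to 74.3% of each. Without the top barcode of each group the P7 ratios were 0.01, -0.10, -0.20 and -0.20, none called, and the P30 ratios -2.65, -3.13, -2.91 and -3.08. Fst, the activin-binding follistatin, was at -2.21 at P7 and 1.90 at P30, and Cd36, a fatty acid transporter of capillaries, at -1.85 and 2.38. Fst was at 69.5 CPM in 8 and 368 CPM in 10 selected barcodes. The others lower at P7 and higher at P30 were Ammecr1 (-2.44 and 2.04), BC028528 (-1.03 and 1.09), Ccl7 (-1.32 and 1.24), Fbxo11 (-2.08 and 1.28), Fnip1 (-2.58 and 1.79), Ptpn2 (-2.05 and 1.31) and Usp36 (-2.28 and 1.58). Ssna1 was the reverse, at 1.36 and -1.27. Without the top barcodes, 5 of the 14 were called in opposite directions, BC028528, Fbxo11, Fnip1, Fst and Ptpn2.

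At P30, 3 barcodes met every condition but the UMI limit, with 20018 to 45846 UMIs. They were outside the comparisons and held 240 UMIs of Prox1, Cldn11 and Foxc2 (180, 53 and 7) among 107244, with 261 of Postn, 170 of Enpp2, 81 of Pdgfra, 1 of Lyve1 and 0 of Ccl21a. At P7 there were 0 such barcodes.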

How the results depend on the processing

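The share of Prox1-selected barcodes kept within its interval under all 8 alternatives in each library. Counts of called genes (56 higher, 148 lower, 301 higher at P30, 417 lower at P30) moved by over 1.5 times under these settings. Weighting each barcode equally, with the fold rule alone, gave 107, 341, 628 and 780, which held 37 of the 56 and 129 of the 148. Thinning to 500 UMIs gave 9, 14, 29 and 22, fewer UMIs by construction. A minimum of 40 UMIs gave 32, 93, 181 and 182, fewer genes by construction. Against the vascular type alone 37 were higher (18 of them among the 56) and 53 lower (28 of them among the 148). A 1.5-fold limit gave 86 higher, a limit of 10000 UMIs 273 lower at P30, and leaving out each gene's top barcode, chosen after seeing the data, 36 higher. Some counts that moved less still changed in membership. A limit of 10000 UMIs gave 44 higher with 32 among the 56, a 0.5% fibroblast limit 66 with 42, and no UMI limit 82 with 42. Of the 20 named higher genes 8 and of the 12 lower 3 were called when thinned, and Pdgfra, Ednrb, Lsamp, Ahsg and Fbn2 were not. Of the genes named by age, 5 of the 10 higher at P30 and 0 of the 10 lower were called when thinned. Named higher genes also lost their calls with equal weights (Ephx2, Epha7, Col18a1), at most 10000 UMIs (Zfp36l1, Col18a1), no UMI limit (Akap12, Kdr), against the equal-weight mean of the Wnt9b and vascular types (Fn1, Sepp1, Aebp1), with at least 2 rule UMIs or a 2% fibroblast limit (Egr1, Sepp1), with at least 4 pan-endothelial UMIs (Fbn2), and without barcodes ending in N or holding other cells' markers (Sepp1). Without the 2 Ccl21a barcodes, also added later, the counts were 53, 144, 293 and 410. The cause of the other moves was not tested. Of 2532 values of named and list genes under alternatives, 2131 moved by less than their interval, 385 by more, and 16 reversed. Log2 ratios that reversed were Ntn4 at P7, 0.15 with equal weights and 0.49 thinned; against the Wnt9b type, Nrp1 (0.98 and 1.23), Rspo3 at P30 (0.63) and Bmx at P30 (0.63); against the vascular type, Fn1 (-0.34), Aebp1 (-0.35) and Prnp (1.53) at P7, Ptprr (0.30), Sema3a (0.56) and Inhbb (0.30) at P30, and Hapln1 (1.94 and 2.16). Birc5 at P30 came to -0.00 at 10000 UMIs, and Xirp2 at P30 to 0.07 with no UMI limit. Scaling by the median ratio shifted ratios by -0.11, -0.01 and -0.09 and changed no named call. No paired analysis was possible because each age has 1 library. Depth limits genes under about 15 UMIs.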
